A study of Mus musculus with 6 samples.

Results

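Pir, Plekhg4 and Adipor2 are 3 of the 55401 genes measured in embryonic stem cells of the mouse that overexpressed the histone-binding protein RBBP4 or its close relative RBBP7. They were chosen by their TPM values in Rbbp4 OE and control libraries, as protein-coding genes whose transcript levels were much lower with Rbbp4, and each is set beside the expressed genes within 1 Mb of it. Among protein-coding genes called lower with Rbbp4, ranked by log2 fold change, they stood at ranks 2, 1 and 5. Grb10 at rank 3 (-2.34) and Ccne2 at rank 4 (-2.10) were not among the genes chosen, and Hoxa10 at rank 6 (-1.85) lay just outside the range that the chosen genes span. The comparison of Rbbp4 with control therefore picked these genes, and all other comparisons share libraries with it, so their values are given as a description and carry no p-value.

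All 6 libraries came from the mouse embryonic stem cell (mESC) line 46C, by bulk RNA-seq of poly(A) RNA. By the study's methods, every cell carried the biotin ligase BirA with a V5 tag from a lentivirus selected with blasticidin. The control cells then received a lentiviral vector with the FLAG-Avitag alone, the Rbbp4 OE cells the same vector with Rbbp4, and the Rbbp7 OE cells the same vector with Rbbp7, each selected with puromycin. Cells of all groups grew in serum with LIF, Chir99021 and PD0325901 and had no other treatment, and each of the 3 groups had 2 libraries. Whether the lines are pools or clones, what promoter drives the transgene and whether replicates are separate cultures are not given in the sources used here, so p-values measure the spread between these libraries, which may be technical.

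Values are TPM, a share of transcripts that corrects for their length and sums to the same total in every library, so sequencing depth is unknown. Between 19011 and 19691 genes were above 0 in a library. The median absolute log2 difference between the replicates was 0.178 in control, 0.121 in Rbbp4 OE and 0.123 in Rbbp7 OE. Rbbp4 measured 146 and 147 TPM in control, 270 and 271 TPM with Rbbp4 and 144 and 143 TPM with Rbbp7. Rbbp7 measured 239 and 237 TPM in control, 208 and 217 TPM with Rbbp4 and 725 and 748 TPM with Rbbp7, so each transgene's own gene was highest in the line labelled for it. All 8 stem cell markers were detected, with a summed level of 7879 to 8107 TPM in control, 8508 to 8799 TPM with Rbbp4 and 8511 to 8743 TPM with Rbbp7. The largest part of that sum was Dppa5a, at 4520 and 4166 TPM in control and 4740 and 5134 TPM with Rbbp4. The 8 markers had no common direction with Rbbp4. Log2 fold changes were positive for Pou5f1 (0.25), Sox2 (0.12), Zfp42 (0.02) and Dppa5a (0.18). They were negative for Nanog (-0.23), Esrrb (-0.27), Klf4 (-0.45) and Tdgf1 (-0.27). The 6 fibroblast or feeder markers summed to 4.48 to 5.59 TPM in control, 9.09 to 11.3 TPM with Rbbp4 and 8.75 to 15.5 TPM with Rbbp7. The largest part of each sum was Thy1, at 4.13 and 5.02 TPM in control, 8.87 and 10.8 TPM with Rbbp4 and 7.01 and 7.04 TPM with Rbbp7. Col3a1 measured 6.39 TPM in 1 Rbbp7 OE library and 0.06 TPM in the other. With Rbbp4 it stayed at 0.02 and 0.03 TPM, and Col1a1 had a log2 difference of -0.07. Postn and Lum were listed at 0 in every library. The 6 trophoblast markers summed to 22.9 to 23.0, 24.7 to 32.8 and 34.5 to 37.6 TPM, and the 6 primitive endoderm markers to 0.83 to 0.87, 1.26 to 2.49 and 1.28 to 1.67 TPM. The 5 neural markers summed to 104 to 106, 121 to 122 and 95.1 to 96.6 TPM, and the 4 mesoderm markers to 2.22 to 3.52, 3.96 to 4.29 and 4.84 to 5.60 TPM. Among the tested trophoblast markers Eomes (0.41) and Krt8 (0.50) were higher with Rbbp4, and Cdx2 (-0.52) and Gata3 (-0.54) were lower. None of the markers of any list was called in a comparison, and the part of these cell types in the levels given below was not tested. In bulk RNA, fewer cells of a type and less RNA per cell cannot be told apart.

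The chosen genes have unlike roles. Pir encodes pirin, an iron-binding nuclear protein of the cupin fold that acts as a cofactor of NF-kB with BCL3 and is a known target of the antioxidant regulator NRF2. Plekhg4 encodes puratrophin-1, a guanine nucleotide exchange factor of the Dbl family, whose members switch on small GTPases that shape the actin cytoskeleton. Adipor2 encodes a receptor for the fat-cell hormone adiponectin in the PAQR family of membrane proteins, tied to AMPK and fatty acid oxidation and to keeping membrane lipids unsaturated and fluid. RBBP4 and RBBP7 are subunits of several chromatin complexes, among them NuRD, PRC2 and SIN3.

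The upstream sequences of the 3 genes are shown because the genes were low in the same libraries, and their base composition differed. They come from RefSeq on GRCm38.p6, run 5′ to 3′ on each gene's own strand, and hold those of the 250 bases before the RefSeq start that lie outside the gene's annotated exons. Capitals mark matches to a searched motif.
Pir: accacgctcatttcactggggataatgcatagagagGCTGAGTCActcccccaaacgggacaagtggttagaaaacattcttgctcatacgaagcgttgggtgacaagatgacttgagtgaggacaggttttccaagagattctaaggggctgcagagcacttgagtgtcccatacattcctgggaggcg
Plekhg4: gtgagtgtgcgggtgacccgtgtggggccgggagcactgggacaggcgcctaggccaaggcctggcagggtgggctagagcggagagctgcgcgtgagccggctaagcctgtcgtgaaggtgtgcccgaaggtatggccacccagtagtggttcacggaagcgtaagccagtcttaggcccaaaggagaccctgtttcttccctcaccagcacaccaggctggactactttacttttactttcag
Adipor2: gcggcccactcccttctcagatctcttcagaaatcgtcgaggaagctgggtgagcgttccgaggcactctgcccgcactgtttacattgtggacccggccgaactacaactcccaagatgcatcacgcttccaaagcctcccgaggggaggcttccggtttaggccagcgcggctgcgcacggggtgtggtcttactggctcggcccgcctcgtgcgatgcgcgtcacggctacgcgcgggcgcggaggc
The Pir sequence spans chrX:164269181-164269370 on the plus strand, before a RefSeq start that lies 0.06 kb inside the outermost GENCODE start. The Plekhg4 sequence spans chr8:105374982-105375226 on the plus strand, and its RefSeq start lies 1.95 kb inside the outermost GENCODE start, so these bases lie within the annotated gene and between its exons. The Adipor2 sequence spans chr6:119388735-119388984 on the minus strand, and its RefSeq start lies 28.97 kb inside the outermost GENCODE start. The bases just after the RefSeq start were found in a GENCODE transcript of the gene for Pir, but not for Plekhg4 or Adipor2. Whether the windows of the latter act as promoters in these cells is thus not known. The Adipor2 window had the most CpG dinucleotides, 27 in 250 bases with 64.8% GC, more CpG than 91.4% of the 32851 RefSeq promoters of that length. The Plekhg4 window had 12 CpG and 61.6% GC, and that of Pir had 10 CpG and 53.6% GC, against medians of 6 CpG and 52.4% GC over all promoters.

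On both strands of each window 6 motifs were searched. The Pir window held the AP-1 site TGANTCA at 212 bases before the start and, on the reverse strand and overlapping it, the core of the antioxidant response element TGACNNNGC at 214 bases. The AP-1 site was present in 6.75% and the antioxidant core in 10.2% of all promoters. None of the 3 windows held the GC box GGGCGG (32.7% of all promoters), the CCAAT box CCAAT (33.9%), the TATA box TATAAA (12.4%) or the E-box CACGTG (6.02%), and those of Plekhg4 and Adipor2 held none of the 6. The sequence before the outermost GENCODE starts of Plekhg4 and Adipor2 was not searched. A match describes letters in this window and shows no binding.

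Pir (ENSMUSG00000031379.13) lies on the plus strand of chromosome X at 164269371 to 164373011 (GRCm38), a span of 103.6 kb, with 7 exons in its longest transcript of 2915 nt. It measured 13.1 and 15.7 TPM in control, 1.47 and 1.23 TPM with Rbbp4, and 6.31 and 6.27 TPM with Rbbp7. The groups did not overlap, and the Rbbp7 OE libraries stood between the others. The means were 14.4 ± 1.8 (SD, n = 2), 1.35 ± 0.17 (SD, n = 2) and 6.29 ± 0.028 TPM (SD, n = 2). Pir thus measured 9.39% of control in Rbbp4 OE and 43.8% in Rbbp7 OE. On the scale of log2(TPM + 1), which understates the change of low genes, the difference from control was -2.71 (SE 0.149) in Rbbp4 OE and -1.07 (SE 0.149) in Rbbp7 OE. Pir was the gene of the 3 that most separated the overexpression lines, with a log2 difference of -1.64 (SE 0.149) between Rbbp4 OE and Rbbp7 OE. Its rank went from above 55.2% and 56.9% of tested genes in the control libraries to above 18.3% and 15.1% in Rbbp4 OE.

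Plekhg4 (ENSMUSG00000014782.16) lies on the plus strand of chromosome 8 at 105373274 to 105382862, a span of 9.6 kb, with 19 exons in its longest transcript of 4835 nt. It measured 6.57 and 7.60 TPM in control, 0.10 and 0.33 TPM with Rbbp4, and 0.59 and 0.38 TPM with Rbbp7. Both overexpression lines lay far under control and close to each other, with the lower Rbbp7 OE library just above the higher Rbbp4 OE library. The means were 7.08 ± 0.73 (SD, n = 2), 0.215 ± 0.16 (SD, n = 2) and 0.485 ± 0.15 TPM (SD, n = 2), or 3.03% of control in Rbbp4 OE and 6.85% in Rbbp7 OE. By ratio of mean TPM these were the deepest differences of the 3 genes, 33.0-fold below control in Rbbp4 OE and 14.6-fold in Rbbp7 OE. In log2(TPM + 1) they came to -2.74 and -2.45 (SE 0.212 each). The difference between Rbbp4 OE and Rbbp7 OE was -0.29 (SE 0.212), from -0.43 to -0.16 when single libraries were left out. Plekhg4 overlaps Kctd19, which reached at most 0.09 TPM.

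Adipor2 (ENSMUSG00000030168.13) lies on the minus strand of chromosome 6 at 119353150 to 119417704, a span of 64.6 kb, with 8 exons in its longest transcript of 4184 nt. It was the most highly expressed of the 3 per length, at 95.1 and 103 TPM in control, 24.2 and 24.9 TPM with Rbbp4, and 30.6 and 31.6 TPM with Rbbp7. Replicates lay close together, and the groups did not overlap. The means were 98.9 ± 5.4 (SD, n = 2), 24.5 ± 0.49 (SD, n = 2) and 31.1 ± 0.74 TPM (SD, n = 2), so that 24.8% of the control level was left in Rbbp4 OE and 31.4% in Rbbp7 OE. The log2 differences from control were -1.97 and -1.64, and that between the overexpression lines was -0.33 (SE 0.0746 each). With these levels Adipor2 still stood above 68.9% to 72.6% of tested genes in the overexpression lines, against 89.4% and 89.8% in control.

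**Figure D1:**
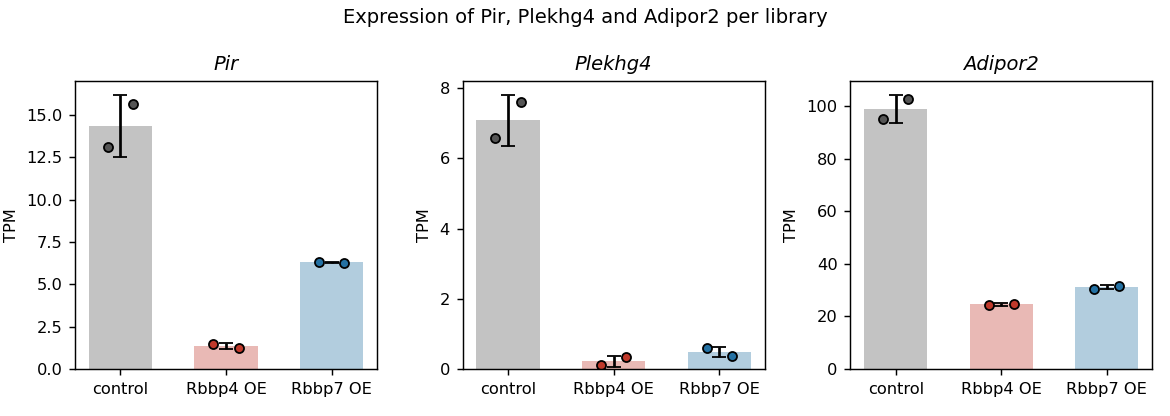
TPM in each of the 6 libraries (points) with the group mean for Pir, Plekhg4 and Adipor2 in control, Rbbp4 OE and Rbbp7 OE. In each panel the control libraries are highest and the Rbbp4 OE libraries lowest, with means of 14.4, 6.29 and 1.35 TPM for Pir in control, Rbbp7 OE and Rbbp4 OE.

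All 3 genes had the order control, Rbbp7 OE, Rbbp4 OE with no overlap between groups. Control far above Rbbp4 OE was how they were chosen, which left a wide gap for the Rbbp7 OE libraries to fall in. Their place was thus only partly open. The shares that follow cover all tested genes, not genes with falls as large. Of the 14156 tested genes 37.1% were lower in Rbbp4 OE than in control without overlap, and 10.2% showed the full order. The size of the step differed between the genes: Rbbp7 OE exceeded Rbbp4 OE 4.66-fold for Pir, 2.26-fold for Plekhg4 and 1.27-fold for Adipor2 by mean TPM. The smallest ratio of a control library to an Rbbp4 OE library was 8.90 for Pir, 19.9 for Plekhg4 and 3.83 for Adipor2. Against Rbbp7 OE the smallest ratios were 2.07, 11.1 and 3.01.

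A gene was called where limma-trend gave both a fold change over 2 and an adjusted p (Benjamini-Hochberg) under 0.01. The 3 genes were chosen on these values, and every comparison shares libraries with that choice. Their calls are thus a description and no test. In Rbbp4 OE against control all 3 genes were called lower, an outcome that their choice largely set in advance. Over all tested genes 0.311% were called lower. In Rbbp7 OE against control 1 of the 3, Adipor2, was called lower, beside 0.0141% of all tested genes, although the larger log2 difference in that comparison was that of Plekhg4. In Rbbp4 OE against Rbbp7 OE 0 of the 3 were called, where 0.0494% of all tested genes were called in either direction. The members' calls in Rbbp4 OE held under both other scalings, both other pseudocounts and a robust trend. They fell to 1 of 3, Adipor2, without Rbbp4 OE replicate 1, with no filter on low values and with a replicate block, and to 0 of 3 in a fit of only the compared groups and without any 1 of the 5 other libraries. The call of Adipor2 in Rbbp7 OE was lost with no filter, in the fit of only the compared groups and without any 1 of the 6 libraries. Library values did not overlap in that direction for all 3 genes in each comparison, a pattern shown by 37.1% of tested genes for Rbbp4 OE under control, 23.4% for Rbbp7 OE under control and 38.6% for Rbbp4 OE under Rbbp7 OE.

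Whether the genes around each member were lower as well was asked of the 74 genes tested within 1 Mb, 70 of them protein-coding, out of 169 annotated there. Pir had 8 such neighbours, Plekhg4 52 and Adipor2 14. None of the 74 was called by limma in Rbbp4 OE against control, where 0.516% of all tested genes were called in either direction, and an unadjusted p under 0.05 was seen for 42 of the 74, beside 29.6% of all tested genes. At an adjusted p under 0.05 with no minimum fold, 22 neighbours were lower and 1 was higher. That is 29.7% of neighbours lower, against 8.07% of all tested genes lower and 3.29% higher. The 22 were unevenly spread, with 19 of the 52 near Plekhg4 (36.5%), 3 of the 14 near Adipor2 (21.4%) and 0 of the 8 near Pir. The count stayed at 22 without control replicate 1, and was 4 without control replicate 2, 1 without Rbbp4 OE replicate 1, 0 without Rbbp4 OE replicate 2 and 1 without either of the Rbbp7 OE replicates. No neighbour came near the size of the member it surrounds, the lowest log2 differences being -0.65 near Pir, -0.94 near Plekhg4 and -1.02 near Adipor2. The members were chosen for large falls and the neighbours by position, so this contrast in size was largely set in advance.

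The neighbours of Plekhg4 lay on the low side in both overexpression lines. In Rbbp4 OE 43 of the 52 had a negative log2 difference from control and the median was -0.36, and in Rbbp7 OE 41 of the 52 were negative with a median of -0.24. Of all 14156 tested genes 8352 were negative in Rbbp4 OE and 7172 in Rbbp7 OE. Libraries were lower without overlap for 35 of the 52 (67.3%) in Rbbp4 OE. The share was 37.1% over all tested genes and 46.5% over those of chromosome 8. In Rbbp7 OE this held for 33 (63.5%), beside 23.4% and 39.1%. Slc9a5, a sodium-proton exchanger gene just before Plekhg4 and its nearest tested protein-coding gene on that side, measured 1.58 and 1.44 TPM in control, 1.41 and 1.44 TPM with Rbbp4 and 2.19 and 1.38 TPM with Rbbp7. These overlap, and the log2 difference of Rbbp4 OE was -0.05 (adjusted p = 0.907 by limma), or 0.01 under median-of-ratios scaling. Tppp3, of a family of tubulin-polymerizing proteins and the nearest on the other side, was at 12.3 and 10.7 TPM in control against 18.5 and 13.1 TPM with Rbbp4 (log2 difference 0.41, adjusted p = 0.207 by limma). Neither gene showed the steep difference of Plekhg4. Slc9a5 was expressed at a low level, and Tppp3 lies 84.6 kb past the end of Plekhg4. Of the 115 annotated genes in the window 52 were tested.

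Farther off, the largest differences near Plekhg4 were those of Slc7a6, Cbfb and Gfod2. Slc7a6, an amino acid transporter, was lower in Rbbp4 OE, at 9.71 and 10.9 TPM against 20.04 and 21.4 TPM in control (log2 difference -0.94, adjusted p = 0.00884 by limma), and 14.4 and 14.7 TPM with Rbbp7. Cbfb, the partner subunit of the RUNX transcription factors, was at 21.9 and 20.2 TPM with Rbbp4 against 37.0 and 45.3 TPM in control (log2 difference -0.93, adjusted p = 0.0136 by limma). Gfod2 was lower as well, with a log2 difference of -0.90 (adjusted p = 0.0227 by limma). Named after their values were seen, E2f4, a transcription factor that holds down cell cycle genes, and the arginine methyltransferase gene Prmt7 were, with Slc7a6 and Bms1 near Adipor2, the 4 neighbours under an adjusted p of 0.01. That count was 0 without any 1 of the 6 libraries, under median-of-ratios scaling, with a replicate block, with no filter and in the fit of only the compared groups, and 1 under quantile normalization and with a pseudocount of 5. E2f4 measured 211 and 211 TPM in control, 141 and 140 TPM with Rbbp4 and 156 and 162 TPM with Rbbp7, with log2 differences of -0.58 (adjusted p = 0.00552 by limma) and -0.41 (adjusted p = 0.0426 by limma). Its libraries kept the order of the members, control over Rbbp7 OE over Rbbp4 OE. The log2 difference of Prmt7 in Rbbp4 OE was -0.59 (adjusted p = 0.00884 by limma).

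Around Adipor2, 12 of 14 neighbours were negative in Rbbp4 OE with a median log2 difference of -0.45, and 9 of 14 in Rbbp7 OE with a median of -0.14. Of all 14156 tested genes 8352 and 7172 were negative in these comparisons. Libraries were lower without overlap for 10 of the 14 (71.4%) in Rbbp4 OE. The share was 37.1% over all tested genes and 47.1% over those of chromosome 6. In Rbbp7 OE this held for 6 (42.9%), beside 23.4% and 32.9%. Kdm5a, a demethylase of lysine 4 on histone H3, was at 9.42 and 8.83 TPM with Rbbp4 against 15.9 and 23.4 TPM in control, and 13.4 and 14.9 TPM with Rbbp7 (log2 difference of Rbbp4 OE -1.004, adjusted p = 0.0258 by limma). Erc1, a scaffold protein of the cell cortex, had a log2 difference of -0.80 (adjusted p = 0.0477 by limma), and Bms1, a GTPase of ribosome assembly, one of -0.76 (adjusted p = 0.00894 by limma). Ankrd26 had the largest difference, -1.02, but its control libraries stood apart at 4.2 and 9.14 TPM and it did not pass (adjusted p = 0.0883 by limma). The genes on either side of Adipor2 were expressed at low levels. Lrtm2 measured 1.80 and 0.37 TPM in control and 0.39 and 1.12 TPM with Rbbp4 (adjusted p = 0.798 by limma), and Wnt5b, a secreted Wnt ligand 14.8 kb away, 0.81 and 1.29 TPM against 1.19 and 2.00 TPM (adjusted p = 0.439 by limma).

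The 8 neighbours of Pir showed no common direction. In Rbbp4 OE 5 were negative and the median log2 difference was -0.06, which turned to 0.03 under median-of-ratios scaling and 0.0055 under quantile normalization, and in Rbbp7 OE 4 were negative with a median of 0.03. Zrsr2, a splicing factor of the minor spliceosome, was the 1 neighbour that was higher in Rbbp4 OE, at 152 and 146 TPM against 116 and 92.1 TPM in control (log2 difference 0.52, adjusted p = 0.0351 by limma). Piga, an enzyme that starts the GPI membrane anchor, and Mospd2, a tether of the endoplasmic reticulum, had log2 differences of -0.44 and -0.65 that missed the threshold (adjusted p = 0.0509 and 0.0535 by limma). Vegfd, a growth factor of lymphatic vessels that begins 0.367 kb after the end of Pir, stayed at or under 0.75 TPM in control and Rbbp4 OE (log2 difference -0.28, adjusted p = 0.604 by limma). Siah1b, a ubiquitin ligase on the other side, measured 65.2 and 70.8 TPM in control and 68.6 and 73.0 TPM with Rbbp4 (log2 difference 0.06, adjusted p = 0.659 by limma).

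**Figure D2:**
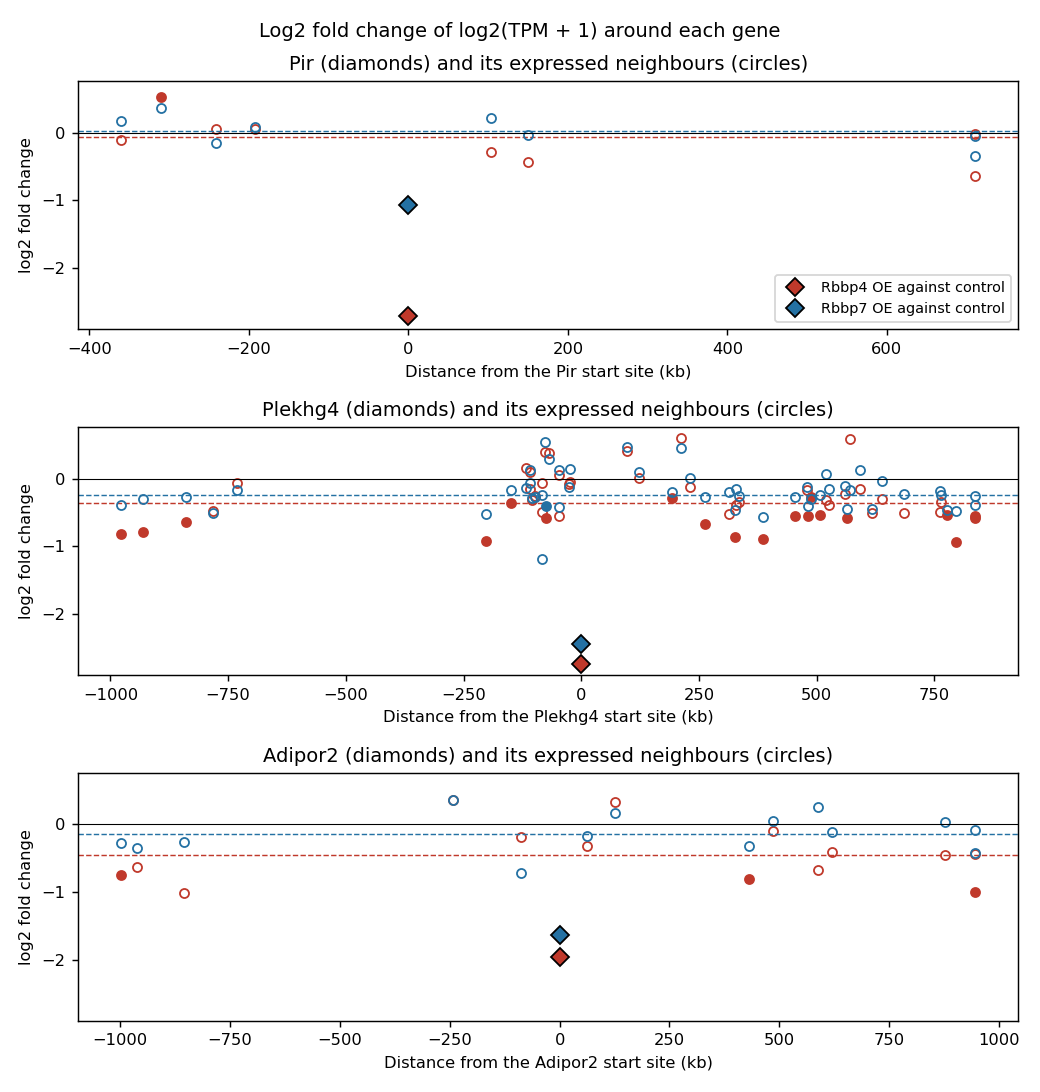
Log2 difference from control on the scale of log2(TPM + 1) of each tested gene within 1 Mb of Pir, Plekhg4 and Adipor2 (points, by distance in genomic direction), for Rbbp4 OE and Rbbp7 OE, with the member itself marked. The members stand at -2.71, -2.74 and -1.97 in Rbbp4 OE while no neighbour is below -1.02 there, and the median of the neighbours is -0.06 near Pir, -0.36 near Plekhg4 and -0.45 near Adipor2.

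In Rbbp7 OE against control none of the 74 neighbours was called by limma, beside 0.0353% of all tested genes in either direction, and 24 of the 74 were under 0.05 unadjusted, beside 15.4% of all tested genes. At an adjusted p under 0.05, 1 neighbour was lower, E2f4, beside 0.29% of all tested genes, and 0 were higher, beside 0.198%. E2f4 no longer passed in Rbbp7 OE without any 1 of the 6 libraries. In Rbbp4 OE against Rbbp7 OE none was called by limma and none passed an adjusted p of 0.05, with 20 of the 74 under an unadjusted p of 0.05, beside 19% of all tested genes, while 40 were lower in Rbbp4 OE without overlap, beside 38.6%.

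The neighbourhoods were next set against their chromosomes. The median log2 difference in Rbbp4 OE was -0.15 over the 747 tested genes of chromosome 8, -0.16 over the 663 of chromosome 6, -0.12 over the 483 of chromosome X and -0.08 over all tested genes. In Rbbp7 OE these medians were -0.08, -0.05, -0.01 and -0.0037. The low side near Plekhg4 reached beyond its 1 Mb window. In segments of 10 Mb, looked at after the values were seen, the 4 segments of chromosome 8 from 90 Mb on had medians of -0.33, -0.38, -0.26 and -0.37 in Rbbp4 OE and -0.24, -0.23, -0.20 and -0.28 with Rbbp7. Plekhg4 lies in the second of these, with 94 tested genes. The 9 segments before 90 Mb had medians from -0.22 to 0.02 in Rbbp4 OE and from -0.06 to 0.04 in Rbbp7 OE. On chromosome 6 the 4 segments from 100 to 140 Mb had medians of -0.35, -0.31, -0.29 and -0.23 in Rbbp4 OE and -0.16, -0.12, -0.09 and -0.10 with Rbbp7, with Adipor2 in the second of them. The 11 other segments of chromosome 6 ranged from -0.20 to 0.06 in Rbbp4 OE. The segment of Pir on chromosome X had medians of 0.05 in Rbbp4 OE and 0.06 in Rbbp7 OE. The other segments of chromosome X with at least 10 tested genes ranged from -0.46 to 0.02 in Rbbp4 OE. The lowest of these, at 140 to 150 Mb, held 12 tested genes and had a median of -0.25 in Rbbp7 OE. Low medians thus also occurred away from the members, and segments of other chromosomes were not computed. DNA copy number was not measured, and its part in these medians was not tested.

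**Figure D3:**
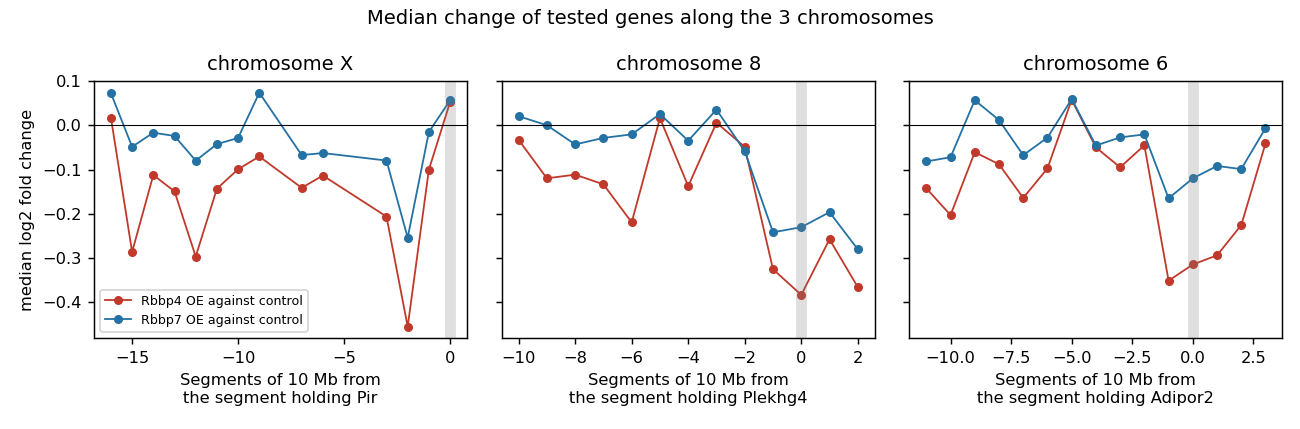
Median log2 difference from control in segments of 10 Mb along chromosomes X, 8 and 6, for Rbbp4 OE and Rbbp7 OE, with the segment of each member marked and segments with fewer than 10 tested genes left out. The last 4 segments of chromosome 8 lie between -0.38 and -0.26 in Rbbp4 OE and between -0.28 and -0.20 in Rbbp7 OE, below the 9 segments before them.

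Pathway genes of the members were taken from 6 lists holding 94 genes, of which 83 were tested. No list gene was called by limma in a comparison, with 30 of the 83 under an unadjusted p of 0.05 in Rbbp4 OE against control, 17 in Rbbp7 OE against control and 20 in Rbbp4 OE against Rbbp7 OE. The shares of all tested genes under that p were 29.6%, 15.4% and 19% in the same order. At an adjusted p under 0.05 in Rbbp4 OE against control, 8 were lower and 2 were higher of the 83, against the 8.07% and 3.29% of all tested genes given above. In the other comparisons none passed. The 8 lower were 0 in the fit of only the compared groups, 4 with no filter, 7 with a replicate block and 11 with the filter of 5 TPM. The 2 higher were 0, 2, 2 and 4 in the same order. The count of 8 lower became 11 without control replicate 1, 3 without control replicate 2 and 0 without any 1 of the 4 other libraries, and the 2 higher became 4, 1 and 0.

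For Pir, 21 of 22 NRF2 target genes were tested, with a median log2 difference of 0.12 in Rbbp4 OE and 0.07 in Rbbp7 OE, so the list stood slightly above control while Pir stood far below. Blvrb, biliverdin reductase B, was higher in Rbbp4 OE, at 64.9 and 69.5 TPM against 43.7 and 35.6 TPM in control (log2 difference 0.75, adjusted p = 0.0158 by limma). Txnrd1, the cytosolic thioredoxin reductase, was lower, at 95.5 and 97.1 TPM against 128 and 138 TPM (log2 difference -0.46, adjusted p = 0.0119 by limma). The other 19 did not pass. Of 13 tested genes of NF-kB and of the other partners of pirin, Bcl3, which pirin binds, was higher in Rbbp4 OE, at 123 and 128 TPM against 91.2 and 97.7 TPM (log2 difference 0.41, adjusted p = 0.0170 by limma). The median of that list was -0.07 in Rbbp4 OE, 0.03 under median-of-ratios scaling and 0.04 under quantile normalization, and 0.23 in Rbbp7 OE.

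For Adipor2, the other adiponectin receptor Adipor1 measured 45.2 and 44.0 TPM in control, 37.7 and 35.5 TPM with Rbbp4 and 41.6 and 43.5 TPM with Rbbp7. Its difference was small beside that of Adipor2, at a log2 difference of -0.28 in Rbbp4 OE that missed the threshold (adjusted p = 0.0617 by limma). Of the 14 tested genes of the adiponectin pathway 1 passed, Prkab2, a regulatory subunit of AMPK, which was lower at 3.25 and 3.17 TPM against 5.19 and 6.07 TPM (log2 difference -0.65, adjusted p = 0.0435 by limma). The list had a median of -0.27 in Rbbp4 OE and -0.03 in Rbbp7 OE. None of the 6 tested genes of the PAQR family passed, and their median was -0.09 in Rbbp4 OE, which turned to 0.0093 under median-of-ratios scaling and 0.0088 under quantile normalization. Paqr3, a Golgi protein of that family, measured 4.38 and 6.45 TPM in control and 5.14 and 6.50 TPM with Rbbp4 (adjusted p = 0.811 by limma).

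Genes that make and handle unsaturated fatty acids were the list of the 6 with the most members lower. All 13 tested genes had a negative log2 difference in Rbbp4 OE, also under both other scalings, with a median of -0.34 and 5 (38.5%) lower at an adjusted p under 0.05. Of all tested genes 8.07% were lower at that threshold, and 8352 of 14156 were negative. In Rbbp7 OE 12 of 13 were negative, 11 under either other scaling, with a median of -0.19 and none passing. Scd1, the stearoyl-CoA desaturase, was at 30.1 and 31.9 TPM with Rbbp4 against 51.9 and 62.2 TPM in control, and 39.8 and 38.8 TPM with Rbbp7 (log2 difference of Rbbp4 OE -0.85, adjusted p = 0.0103 by limma). Acsl4, which loads polyunsaturated fatty acids onto coenzyme A, was at 2.82 and 2.49 TPM against 7.07 and 7.59 TPM, and 4.88 and 3.95 TPM with Rbbp7 (log2 difference -1.19, adjusted p = 0.0130 by limma). The other 3 were Elovl6, a fatty acid elongase (-0.63, adjusted p = 0.0145 by limma), Tlcd1, a membrane protein that bears on membrane fluidity (-0.84, adjusted p = 0.0245 by limma), and the second desaturase Scd2 (-0.65, adjusted p = 0.0255 by limma). Scd1 and Scd2 are close in sequence, so RSEM may have split reads between them. For each of the 5 the Rbbp7 OE libraries lay between those of control and of Rbbp4 OE, an order shown by 10.2% of all tested genes. The 5 were picked as lower in Rbbp4 OE than in control, so part of this order was set by the choice. At an adjusted p under 0.05, 0 genes of the list were lower in the fit of only the compared groups and 3 with no filter. The count stayed at 5 under both other scalings, both other pseudocounts, the replicate block and a robust trend. The 5 that passed became 6 without control replicate 1, 2 without control replicate 2 and 0 without any 1 of the 4 other libraries.

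For Plekhg4, 17 exchange factors of the PLEKHG and Dbl groups were tested and 1 was lower, Ect2, which is needed for cytokinesis, at 35.8 and 32.2 TPM with Rbbp4 against 48.3 and 57.8 TPM in control (log2 difference -0.62, adjusted p = 0.0220 by limma). The median of these factors was 0.09 in Rbbp4 OE and 0.10 in Rbbp7 OE.

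**Figure D4:**
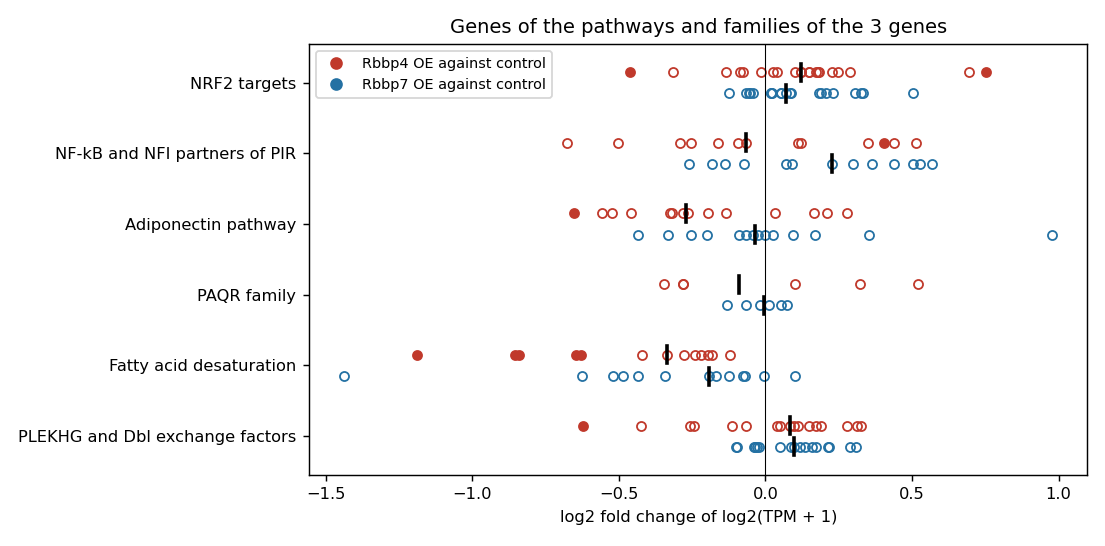
Log2 difference from control on the scale of log2(TPM + 1) of every tested gene in the 6 pathway lists (points) for Rbbp4 OE and Rbbp7 OE, with the list's median (line) and filled points for an adjusted p under 0.05. The fatty acid desaturation list lies wholly below 0 in Rbbp4 OE with a median of -0.34, while the NRF2 target list has a median of 0.12.

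The genes most like each member were taken as the 5 protein-coding genes of mean TPM of at least 5 with the highest Pearson r of log2(TPM + 1) over the 6 libraries. The 6 points share 3 groups, so r mainly reflects how the group levels are spaced. The nearest to Pir were Rnf4, a ubiquitin ligase for SUMO-tagged proteins, Idi1, an isomerase of isoprenoid synthesis, Bcl2l13, the COP9 signalosome gene Cops7a and the exocyst gene Exoc8, each with r of 0.999. Rnf4 had the order of Pir, at 104 and 112 TPM in control, 44.5 and 42.6 TPM with Rbbp4 and 72.6 and 73.5 TPM with Rbbp7. The nearest to Plekhg4 was Adipor2 itself with r of 0.995, followed by Arl6ip1, Got2, the amino acid transporter gene Slc7a3 and the sterol sensor gene Insig1 with r of 0.990 to 0.988. The nearest to Adipor2 were Nt5dc2, Got2, the glycine cleavage gene Gcsh, the squalene synthase gene Fdft1 and Tango6 with r of 0.996 to 0.991. Got2, the mitochondrial aspartate aminotransferase, Gcsh and Tango6 lie on chromosome 8, as does Exoc8, while Bcl2l13 and Cops7a lie on chromosome 6. Rnf4 and Insig1 lie on chromosome 5, Arl6ip1 on 7, Idi1 on 13, Nt5dc2 and Fdft1 on 14 and Slc7a3 on X. Only Got2, as a gene like Plekhg4, shares the chromosome of the member it was near. Got2 was at 200 and 216 TPM in control, 130 and 130 TPM with Rbbp4 and 144 and 142 TPM with Rbbp7, so both overexpression lines lay close together as for Plekhg4 and Adipor2. Among the members r was 0.995 for Plekhg4 with Adipor2, 0.883 for Adipor2 with Pir and 0.849 for Pir with Plekhg4.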

How the data were processed

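Poly(A) RNA-seq libraries of 46C mESCs were grouped by the sample labels into control, Rbbp4 OE and Rbbp7 OE, with 2 libraries each. The authors trimmed reads with Trim_galore, aligned them to mm10 with STAR and estimated expression with RSEM, and they deposited 1 table of TPM values per library, holding 55401 genes. TPM keeps no depth, so no counting interval was given. Names and coordinates came from GENCODE M21 (GRCm38), an earlier release than the one in the study's methods, matched on the gene identifier without version for 55141 genes, and 260 had no match. The promoters were those of RefSeq (GRCm38.p6).

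The study tested genes with a model for counts. As TPM are no counts, its thresholds were kept with limma-trend (limma 3.58.1, R 4.3.3) on log2(TPM + 1), for the 14156 genes with a mean of at least 0.5 TPM, in 1 fit of all 3 groups with 3 residual and 3.103 prior degrees of freedom. P-values were adjusted over all genes tested. The fit was tested on simulated data.

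The members and gene lists were chosen with earlier results of these data known, so no list is independent evidence. The lists were NRF2 targets, NF-kB and NFI partners of pirin, the adiponectin pathway, the PAQR family, fatty acid desaturation, PLEKHG and Dbl exchange factors and the cell type markers. Of the 94 pathway genes 93 were matched. A further list set at the start is not reported here.

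The rule for named genes was the members, Rbbp4, Rbbp7, called neighbours, the nearest tested protein-coding gene on each side, the 3 neighbours per locus with the largest change in Rbbp4 OE, Adipor1, list genes with an adjusted p under 0.05 (at most 5 per list, otherwise the 2 of highest TPM) and the 5 genes most like each member.

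Alternatives were the pseudocount, filter, scaling, thresholds, window, a fit of 2 groups, a robust trend, a replicate block and leaving out each library. Nothing in the labels pairs the replicate numbers, and same-numbered libraries did not deviate together, with correlations of -0.0263, 0.0336 and -0.0308 between groups.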

Additional observations from a re-analysis of the deposited data

Results flagged for a closer look

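Rbbp7 was flagged because its level differed between the overexpression lines when these were tested directly (adjusted p = 8.31e-05 by limma). It measured 213 ± 7.0 TPM with Rbbp4 and 736 ± 16 TPM with Rbbp7 (SD, n = 2 each), a log2 difference of -1.79. The gene is the one that the Rbbp7 OE cells were made to express, and it lies within 2 Mb of Pir.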

How the results depend on the processing

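The log2 differences of the 3 members kept their negative sign in every setting run, and their size depended on the pseudocount. With a pseudocount of 0.1, Rbbp4 OE against control gave -3.32 for Pir and -4.61 for Plekhg4, Rbbp7 OE against control -3.64 for Plekhg4, and Rbbp4 OE against Rbbp7 OE -2.15 for Pir and -0.97 for Plekhg4. With a pseudocount of 5 the values for Pir, Plekhg4 and Adipor2 were -1.61, -1.21 and -1.81 in Rbbp4 OE and -0.78, -1.14 and -1.53 with Rbbp7, and -0.83 and -0.073 for Pir and Plekhg4 between the lines. The log2 ratio of mean TPM was -3.41 and -5.04 for Pir and Plekhg4 in Rbbp4 OE, -1.19 and -3.87 in Rbbp7 OE, and -2.22 and -1.17 between the lines. For Adipor2, median-of-ratios scaling gave -1.86 and quantile normalization -1.87 in Rbbp4 OE, and -0.23 and -0.22 between the lines. Without single libraries the range for Pir was -2.83 to -2.58 in Rbbp4 OE and -1.19 to -0.95 in Rbbp7 OE, and for Adipor2 -2.02 to -1.91 and -1.69 to -1.58. Plekhg4 has no value under the filter of 5 TPM, as its mean is lower.

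The count of 0 neighbours called in Rbbp4 OE became 1 with a pseudocount of 0.1 (Slc7a6), 2 in a window of 2 Mb (Bid on chromosome 6 at -1.11 and Chtf8 on chromosome 8 at -1.07), 1 at an adjusted p under 0.05 with a fold over 2 (Kdm5a) and 23 with no minimum fold. In Rbbp7 OE it became 1 in the 2 Mb window, Rbbp7 itself, and 1 with no minimum fold, and between the lines 1 in the 2 Mb window, again Rbbp7. The count of 0 list genes called in Rbbp4 OE became 1 under the robust trend and 1 at an adjusted p under 0.05 with a fold over 2 (Acsl4 in both), and 10 with no minimum fold. The 22 neighbours lower in Rbbp4 OE at an adjusted p under 0.05 were 2 in the fit of 2 groups, 9 without a filter and 15 with the replicate block. They were 16 under median-of-ratios scaling, 18 under quantile normalization and 20 with a pseudocount of 5. Higher counts came with the filter of 5 TPM (26), a pseudocount of 0.1 (25) and the robust trend (24). There, in that order, 9, 4 and 5 neighbours were under an adjusted p of 0.01. Calls over all genes in Rbbp4 OE were 92, 81 and 89. Calls over all genes in Rbbp4 OE were 1 in the fit of 2 groups, 4 without a filter, 31 with a pseudocount of 5 and 0 to 40 without single libraries. The replicate block left the members' values at -2.71, -2.74 and -1.97 and 0 neighbours and list genes called, and 1 of 3 members called in Rbbp4 OE, while calls over all genes went from 73 to 4; the numbers do not pair the libraries.

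For the 43 neighbours, list genes and like genes followed through the settings in Rbbp4 OE and Rbbp7 OE against control, the sign changed in 16 of 1274 values, none past the threshold. Rnf4 and Idi1 lost their calls in Rbbp4 OE in 18 values, without each library, with no filter, with the replicate block and in the fit of 2 groups. Under other scalings Slc9a5 was at 0.014 in Rbbp4 OE (median-of-ratios) and Ect2 at 0.0043 in Rbbp7 OE (quantile). The other changes came from leaving out single libraries, with ranges for Rbbp4 OE of -0.00038 to 0.12 for Siah1b, -0.71 to 0.33 for Lrtm2 and -0.13 to 0.335 for Paqr3. For Rbbp7 OE they were -0.16 to 0.61 for Vegfd, -0.13 to 0.065 for Piga, -0.076 to 0.35 for Slc9a5, -0.75 to 0.22 for Ankrd26, -0.092 to 0.0068 for Txnrd1, -0.18 to 0.29 for Paqr3 and -0.15 to 0.11 for Ect2. The causes were not tested. With 2 libraries a group and unknown depth, values under about 1 TPM, as for Plekhg4 in both overexpression lines, are the least certain.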
